A study of Mus musculus with 9 samples.

Results

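Of 92495 regions of accessible chromatin in mouse brain endothelial cells (ECs), 230 carried a peak in the EC-K4KO libraries of both ages and in no WT Cre library. A region joined the peaks of any of the 9 libraries that overlapped by 1 bp or more, and it was kept when at least 2 of 3 young EC-K4KO libraries and at least 1 of 2 old EC-K4KO libraries had a peak in it and none of the 4 WT Cre libraries did. These knockout-only regions were thus selected on the presence of peaks, so their presence in EC-K4KO and absence from WT Cre describe the selection and were not tested. They made up 0.249% of all merged regions.

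Omni-ATAC-seq, which cuts and tags open DNA with the Tn5 transposase, was run on nuclei of ECs purified from mouse brain. Young mice gave 3 EC-K4KO and 2 WT Cre libraries, and old mice gave 2 of each genotype. WT Cre mice carried a Cre recombinase under the VE-cadherin (Cdh5) promoter, and EC-K4KO mice carried it together with floxed Klf4. By the methods of the study, Cre was activated with tamoxifen in controls and knockouts alike, mice of both sexes were used, and the ECs were flow-sorted. The labels do not say whether replicates came from separate mice, so tests here measure only the spread between libraries. Library names begin differently in young and old samples, so age and that prefix cannot be told apart.

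KLF4 is a zinc-finger transcription factor of the Krüppel-like family that binds GC-rich CACCC-type sites and is known in ECs for restraining inflammatory and prothrombotic genes. Regions that are open in only some states of a cell often lie away from promoters and act as enhancers. AP-1, made of FOS and JUN proteins, is a factor that opens such sites in response to growth, injury and stress signals, and ETS factors such as ERG maintain endothelial identity.

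The lengths of the peak lists bear on every count below. Young WT Cre lists held 6157 and 9598 peaks, young EC-K4KO lists 23848 to 27992, old WT Cre lists 32555 and 43893, and old EC-K4KO lists 39079 and 45026. The number of reads behind each list was not analysed here, so its depth is unknown. Promoters of 8 to 12 of 15 endothelial marker genes carried a peak in each library, against none of 12 microglial and none of 10 leukocyte markers in any library. Pericyte and smooth muscle promoters carried 0 to 5 peaks of 12 genes, astrocyte promoters 0 to 3 of 10, oligodendrocyte promoters 0 to 3 of 10, neuronal promoters 0 to 3 of 11 and erythroid promoters 0 or 1 of 8. The pericyte genes had peaks in old WT Cre replicate 2 and in both old EC-K4KO libraries, with 2, 5 and 3 genes, and their part in the results was not tested. At the targeted gene, every library had a peak within 500 bp of the Klf4 TSS. The fold over local background recorded at Klf4 was 6.15 to 7.84 in EC-K4KO and 4.05 to 5.38 in WT Cre libraries. This difference was not tested, and a peak list does not show whether the floxed exons were removed.

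The sequences below are the central 200 bp of members that the results turn on, read on the plus strand of GRCm38 (the build named mm10). The first 3 hold the AP-1 pattern, the next is the member closest to Klf4, and the others are from an endothelial receptor gene and from an endothelial marker whose member has the KLF pattern. Capitals mark matches on either strand to the patterns of AP-1 (TGANTCA), KLF (GGGNGTGG), ETS (GGAAGT), SOX (ACAATGG), FOX (TGTTTAC), factors of the GATA family (AGATAA) and MEF2 (CTATTTTTA), where N is any base.
Tgfbr1 upstream, chr4:47314067-47314266: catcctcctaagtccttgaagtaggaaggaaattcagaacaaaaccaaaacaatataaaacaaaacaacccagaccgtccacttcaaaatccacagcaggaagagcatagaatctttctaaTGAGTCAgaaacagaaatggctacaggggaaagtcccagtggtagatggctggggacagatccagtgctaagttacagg
Tie1 upstream, chr4:118505637-118505836: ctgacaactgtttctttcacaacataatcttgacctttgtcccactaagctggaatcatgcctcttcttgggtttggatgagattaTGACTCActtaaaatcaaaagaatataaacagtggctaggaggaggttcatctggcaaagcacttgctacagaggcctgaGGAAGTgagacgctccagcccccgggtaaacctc
Rbpms intron, chr8:33912923-33913122: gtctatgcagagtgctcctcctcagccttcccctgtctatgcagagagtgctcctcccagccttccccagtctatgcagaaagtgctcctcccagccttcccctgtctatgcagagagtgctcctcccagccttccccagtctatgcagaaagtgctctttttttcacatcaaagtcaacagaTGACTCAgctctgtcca
Klf4 upstream, chr4:55541509-55541708: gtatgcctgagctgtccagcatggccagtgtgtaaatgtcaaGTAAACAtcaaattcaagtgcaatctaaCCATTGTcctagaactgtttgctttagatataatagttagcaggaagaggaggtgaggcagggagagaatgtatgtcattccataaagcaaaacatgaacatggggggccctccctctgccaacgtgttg
Adgrf5 intron, chr17:43400550-43400749: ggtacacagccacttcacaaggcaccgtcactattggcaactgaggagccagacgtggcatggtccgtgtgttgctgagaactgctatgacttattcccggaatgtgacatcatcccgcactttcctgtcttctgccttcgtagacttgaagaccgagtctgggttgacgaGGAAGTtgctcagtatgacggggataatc
Egfl7 intron, chr2:26586827-26587026: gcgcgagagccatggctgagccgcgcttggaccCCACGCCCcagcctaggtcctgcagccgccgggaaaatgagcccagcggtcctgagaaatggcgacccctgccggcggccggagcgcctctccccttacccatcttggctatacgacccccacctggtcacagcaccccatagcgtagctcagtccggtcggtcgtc

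The AP-1 pattern was more frequent in the knockout-only regions than in merged regions at large. It lay in the central 200 bp of 47 of 230 members (20.4%, 95% Wilson interval 15.7 to 26.1, covering counting error only), against 7.65% of all merged regions. Among 17397 regions with the same EC-K4KO presence but also a WT Cre peak the share was 7.82%. Among 13239 regions held by 3 to 5 libraries including WT Cre, which matches the number of libraries that held a member, it was 8.94%. Outside promoters, that is outside the authors' promoter-TSS class, the shares were 23.7% of 194 members, 11.7% of 10200 regions and 9.36% of 12254 regions. Members in introns held the pattern in 27 of 99 cases and intergenic members in 17 of 76, against 1 of 36 at promoters, near Mme. The share was also above that of all regions in sets that just missed the rule. It was 13.4% (interval 11.8 to 15.3) in the 1489 regions with 1 young and at least 1 old EC-K4KO library and no WT Cre peak. Of 78 regions that met the young part of the rule and were found in old mice only in WT Cre, 11 held the pattern (14.1%, interval 8.06 to 23.5), an interval that overlaps that of the members.

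The share was about as high in regions that a single WT Cre library also held. When regions meeting the EC-K4KO condition were split by how many WT Cre libraries also had a peak, AP-1 was found in 20.4% at 0 libraries, 21.9% of 540 regions at 1 library, 9.08% of 8297 at 2, 6.74% of 3650 at 3 and 4.97% of 4910 at 4. The interval at 1 library, 18.6 to 25.5%, lay within that of the members. The step between 1 and 2 libraries was also present outside promoters, at 24.4% and 11.8%. Of the 540 regions held by a single WT Cre library, 536 were held by an old one.

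The members with the AP-1 pattern that are described here were chosen after their values were seen. The strongest was an intronic member near Slc6a6, the taurine transporter, with percentile ranks by p within the library (100 for the smallest p) of 68.4 and 66.6 in young EC-K4KO replicates 1 and 3 and 55.6 and 43.2 in old EC-K4KO. An intronic member of Sash1, a scaffold protein gene, ranked 54.1 and 61.7 in young EC-K4KO replicates 2 and 3 and 41 and 53.5 in old EC-K4KO. An intergenic member at -11909 bp from the TSS of Ptk2, which encodes focal adhesion kinase, ranked 44.5, 54.5, 40.4 and 41 in the same 4 libraries. An intronic member of Egln1, an oxygen-sensing prolyl hydroxylase, ranked 56.9, 47.7 and 45.3 in 3 libraries. Over all 47, the median of the mean ranks was 40.6, beside 30.5 for the members without the pattern.

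**Figure D1:**
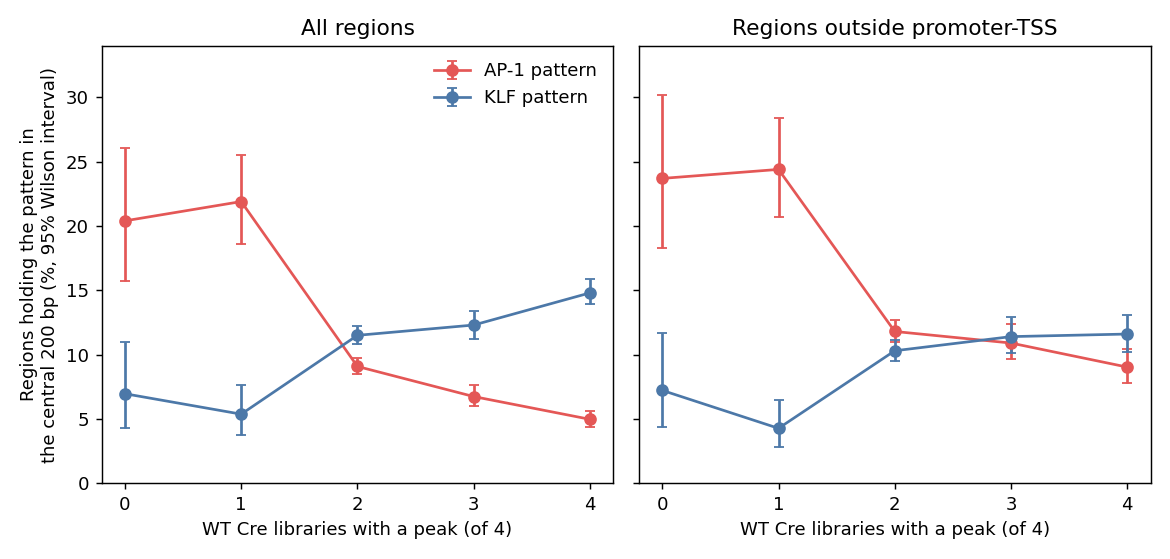
Share of regions (%, y axis) holding the AP-1 or KLF pattern in the central 200 bp, by the number of WT Cre libraries with a peak (x axis), among regions meeting the EC-K4KO condition. The members are the points at 0, and bars are 95% Wilson intervals. The AP-1 share falls from 20.4% and 21.9% at 0 and 1 libraries to 4.97% at 4 (left), while the KLF share is 6.96% at 0, 5.37% at 1 and 14.8% at 4.

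The library composition of the members moved with this share. Of the 129 members that young EC-K4KO replicate 1 did not hold, 35 (27.1%, interval 20.2 to 35.4) had the AP-1 pattern. Of the 101 that it held, 12 did (11.9%, interval 6.93 to 19.6). Without that library the rule gave 155 regions with a share of 27.1%, and without young EC-K4KO replicates 2 or 3 it gave 71 and 57 regions with shares of 15.5% and 12.3%. The minimum of 2 young EC-K4KO libraries was kept, so the rule was stricter with 1 of them left out. Of the 155 regions, 153 overlapped members, so their share largely repeats the split by replicate 1. The AP-1 share thus ranged 12.3 to 27.1% over the libraries left out, beside 7.65% of all regions merged from all 9 libraries. The lowest share rests on 57 regions. Neither intervals nor shares over all regions were computed with a library left out.

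The KLF pattern was found in 16 of 230 members (6.96%, interval 4.33 to 11), beside 7.46% of all regions, 8.44% of regions held by 3 to 5 libraries including WT Cre and 12.4% of regions with the same EC-K4KO presence and a WT Cre peak. Outside promoters the shares were 7.22%, 6.67%, 8.11% and 10.5% in that order, so the members were close to all regions on both counts. Without young EC-K4KO replicates 2 or 3 the share was 9.86% of 71 and 10.5% of 57 regions, and over all libraries left out it ranged 5.48 to 10.5%. The GC box (GGGCGG), which SP factors share with KLF proteins, was in 22.6% of members and 11.7% of all regions. It was in 11.4% of regions held by 3 to 5 libraries including WT Cre. Regions with the same EC-K4KO presence and a WT Cre peak held it in 37.8%. Outside promoters the shares were 14.9% (interval 10.6 to 20.6), 6.86%, 9.03% and 21.8% in that order. The members thus lay above all regions on both counts. ETS was in 16.5% of members and 16.2% of all regions, SOX in 1.74% and 3.71%, FOX in 3.48% and 3.09%, and GATA in 6.96% and 8.47%. TEAD (GGAATG) was in 11.3% and 11%, the E-box (CAGCTG) in 13.0% and 12.4%, CTCF (AGGNGGC) in 16.5% and 16.6%, MEF2 in 0.435% and 0.458%, and CRE (TGACGTCA) in 0% and 0.497%. These are occurrences of letters, not measured binding.

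By rank and by fold, member peaks were weak within their libraries. Young EC-K4KO replicates 1, 2 and 3 held 101, 186 and 199 of the 230 members, and old EC-K4KO replicates 1 and 2 held 215 and 169. Ranked by p within each list, with 100 for the smallest p, the member peaks had medians at the 36.7th, 31.4th and 36.8th percentile in young and at the 32.6th and 29.2nd in old EC-K4KO. In 138 members every peak lay below the 50th percentile, and in 3 every peak lay above it. The deposited fold over local background had medians of 2.94, 3.61 and 3.78 in young and 3.66 and 4.15 in old EC-K4KO, against 3.11, 4.55, 4.5, 4.75 and 5.35 over all peaks of the same libraries. The share of member peaks with q below 0.01 was 19.8%, 45.7% and 60.3% in young and 78.6% and 91.7% in old EC-K4KO, against 46.8%, 66.4%, 66.8%, 83% and 89.2% of all peaks. By this measure the members lay below all peaks in 4 libraries and slightly above them in old EC-K4KO replicate 2.

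**Figure D2:**
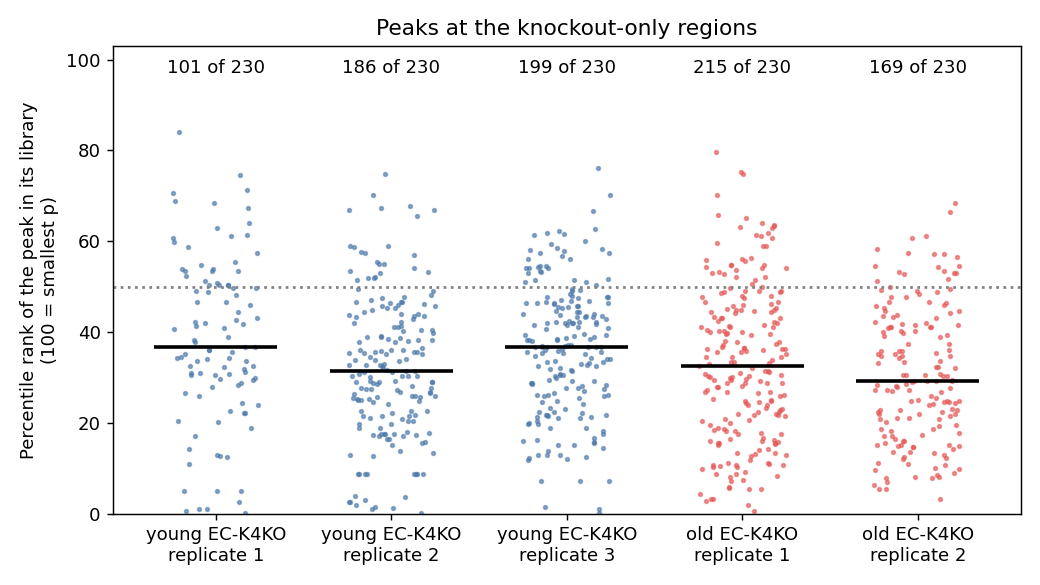
Percentile rank of each member peak within its EC-K4KO library (y axis, 100 for the smallest p), young in blue and old in red. Each point is the strongest peak of a member, black lines are medians (29.2 to 36.8), the dotted line is the 50th percentile, and the number above each column is the members held.

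Most members, 144, were held by 4 EC-K4KO libraries and 68 by 3. The commonest combination, 101 members, was young EC-K4KO replicates 2 and 3 with both old EC-K4KO libraries. A peak in all 5 EC-K4KO libraries was found at 18 members, which is 0.154% of the 11701 regions present in all 5. The other 11683 had at least 1 WT Cre peak, including 4872 in all 4 WT Cre libraries.

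Regions just outside the rule outnumbered the members. Beyond it lay 540 regions with a peak in 1 WT Cre library and 1489 with a peak in only 1 young EC-K4KO library. In the former, the lone WT Cre peak had a median percentile of 47.2 where it came from old WT Cre replicate 1 (320 regions) and 31.0 from old WT Cre replicate 2 (216 regions). The weakest members, near Gm5415, Gm527 and Map3k7, had mean -log10 q of 1.25, 1.27 and 1.26, close to the end of the lists at a q of 0.0999. The mirror set, with a peak in at least 1 young and 1 old WT Cre library and no EC-K4KO library, held 39 regions, 0.0422% of all.

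The number of regions that met the rule changed with list length. With each list cut to its 6157 strongest peaks, 51 regions met the rule and 104 met its mirror, and none of the 51 overlapped a member. The overlap of 0 was set by the cut. It kept only peaks stronger than any member peak in old EC-K4KO replicates 1 and 2, where the highest member percentiles were 79.7 and 68.4. With lists cut to equal length within each age, an alternative chosen after seeing the data, 0 regions met the rule and 22 met the mirror. This cut likewise removed every member peak of young EC-K4KO replicates 2 and 3 (highest percentiles 74.7 and 76.2), so no member could meet the rule. With peaks of q below 0.01 only, 129 regions met the rule, of which 62 overlapped members, and 0 met the mirror. Leaving out old WT Cre replicate 1 gave 549 regions and leaving out replicate 2 gave 448, while leaving out either young WT Cre library gave 230 and 234.

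Libraries that took no part in a choice were compared next. Of 9428 regions chosen in young mice alone (at least 2 of 3 young EC-K4KO libraries and no young WT Cre library), 95.5% and 94.3% had a peak in the old EC-K4KO libraries and 91.8% and 90.2% in the old WT Cre libraries. Both old EC-K4KO libraries lay above both old WT Cre libraries, by a mean of 3.88 percentage points (94.9 ± 0.848 against 91.0 ± 1.18, SD, n = 2 each). The exact two-sided permutation test gave p = 0.333, the smallest that 2 against 2 libraries allow. All 4 old libraries shared 8235 of these regions (87.3%). The 230 members are the 2.44% found again in old EC-K4KO and in neither old WT Cre library, beside 78 (0.827%) found again in old WT Cre and in neither old EC-K4KO library. With lists cut to 6157 peaks the gap was 2.84 points, with p = 0.333 (exact permutation test). With lists of equal length within age all 4 old libraries held all 705 chosen regions, so the gap of 0 there was set by the ceiling and compares nothing.

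In the reverse direction, 17875 regions were chosen in old mice alone (at least 1 of 2 old EC-K4KO libraries and no old WT Cre library). Of these, 2.38%, 3.46% and 5.32% had a peak in young EC-K4KO replicates 1, 2 and 3, and 0.0727% and 0.162% in young WT Cre replicates 1 and 2. The mean gap was 3.6 points (3.72 ± 1.49, n = 3, against 0.117 ± 0.0633, n = 2), with groups that did not overlap and p = 0.1 by the exact two-sided permutation test, the smallest possible here. The young EC-K4KO lists were also the longer ones. The alternatives that made the lists equally long differed. With all lists cut to 6157 peaks the gap was 5.61 points over 579 regions (p = 0.1, exact permutation test), with 30.9 to 32.5% in young EC-K4KO and 23.7% and 28.3% in young WT Cre. With lists of equal length within age it reversed to -0.0345 points (p = 0.3, exact permutation test), which rests on 2, 0 and 0 regions in young EC-K4KO and 4 and 2 in young WT Cre, of 6759.

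A mirror choice in old mice gave a count to set beside this within each young library. Of 18731 regions found in at least 1 old WT Cre library and no old EC-K4KO library, 670, 205 and 238 had a peak in young EC-K4KO replicates 1, 2 and 3. The 17875 regions of old EC-K4KO gave 425, 618 and 951. Per region of the old WT Cre set, young EC-K4KO replicates 2 and 3 thus held 3.01 and 4 regions of the old EC-K4KO set, while replicate 1 held 0.634. Young WT Cre replicates 1 and 2 held 0.684 and 0.659. The contrast with replicate 1, and the higher counts in the old EC-K4KO set, depended on the setting. With lists cut to 6157 peaks young EC-K4KO replicates 1, 2 and 3 gave 0.734, 0.734 and 0.678, close to each other, and young WT Cre replicates 1 and 2 gave 0.535 and 0.556. The sets then held 579 regions of old EC-K4KO and 736 of old WT Cre. Every young library held a smaller share of the former set. In young EC-K4KO the shares were 32.5% against 34.8%, 31.4% against 33.7% and 30.9% against 35.9%. In young WT Cre they were 23.7% against 34.8% and 28.3% against 40.1%. With q below 0.01 the 3 ratios of young EC-K4KO were 2.36, 19.6 and 14.3. There the sets differed in size, with 12647 regions of old EC-K4KO and 2204 of old WT Cre. As shares of the 2 sets, replicate 1 held 0.467% against 1.13%. Replicate 2 held 2.48% against 0.726%, and replicate 3 held 4.42% against 1.77%. Young WT Cre replicates 1 and 2 had ratios of 2 and 0.75 in this setting, from counts of 1 to 4 regions. The ratio was computed after seeing the data and was not tested.

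**Figure D3:**
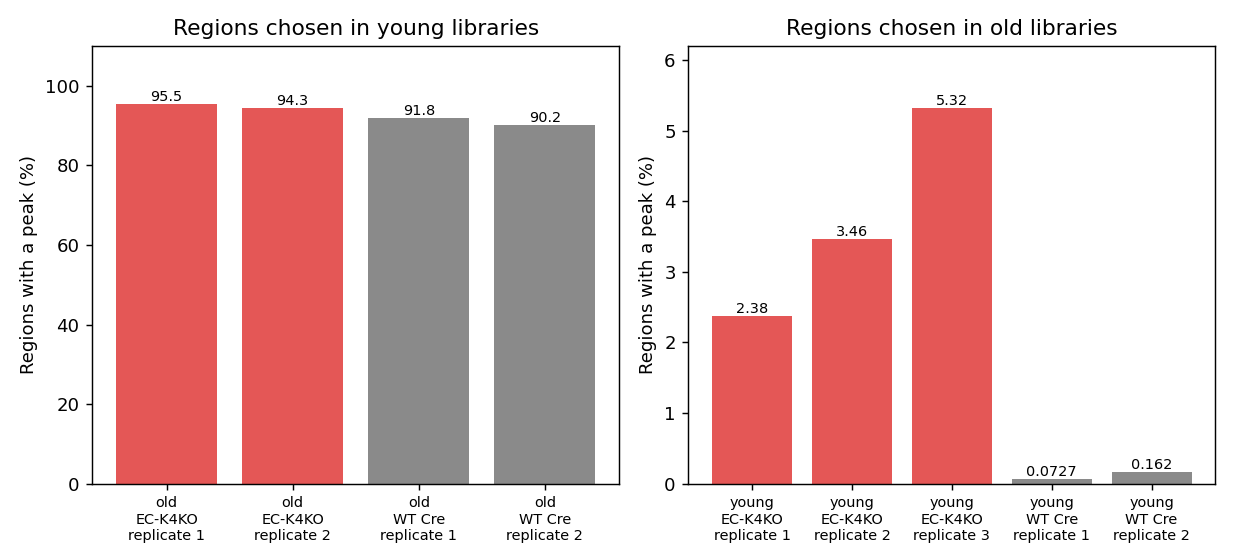
Share of regions with a peak (%, y axis) in libraries that took no part in choosing the regions, EC-K4KO in red and WT Cre in grey. The left panel shows 9428 regions chosen in young libraries (90.2 to 95.5%) and the right panel 17875 regions chosen in old libraries (0.0727 to 5.32%), on separate scales.

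The strength of member peaks overlapped between young and old EC-K4KO. The mean of the library medians was the 34.9th percentile in young (SD 3.11, n = 3) and the 30.9th in old (SD 2.41, n = 2), a difference of -4.06 points with p = 0.3 by the exact permutation test. The lowest young library (31.4) lay below the higher old one (32.6). By deposited fold the sign was opposite, at 0.459 (p = 0.4, exact), and by peak width old peaks were longer by 32.2 bp (p = 0.3, exact). Median widths were 319, 262 and 271 bp in young and 333 and 299 bp in old EC-K4KO, so these groups overlapped too.

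Members lay in introns or between genes less often than regions at large, at 76.1% against 83.7%. By the authors' class of the strongest peak, 99 were intronic (43.0%), 76 intergenic (33.0%), 36 promoter-TSS (15.7%, interval 11.5 to 20.9), 15 exonic and 4 at a transcription end. Over all regions 37% were intronic and 46.7% intergenic. Promoters made up 10.1% of all regions, 7.44% of those held by 3 to 5 libraries including WT Cre and 41.4% of those with the same EC-K4KO presence and a WT Cre peak. The median distance to a GENCODE TSS was 8384 bp for members, 13209 bp for all regions and 306 bp for the last set. Members had a median width of 548 bp (196 to 2027) and a median GC content of 52.5% in the central 200 bp, beside 49.5% in all regions. Bases marked as repeats filled over 50% of the central window in 11 members (4.78%), against 13.7% of all regions. The share was 3.62% of regions held by 3 to 5 libraries including WT Cre. It was 1.6% of regions with the same EC-K4KO presence and a WT Cre peak.

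The nearest WT Cre peak was often close. Its median gap from a member was 7254 bp, 93 members had one within 5 kb, 3 within 500 bp (near Med12l, Snrpn and Fbxo9), and 20 had none within 50 kb.

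The 4 members of highest mean rank were at promoters, although the 36 promoter members ranged from 11, near Phf24, to 74.7. The peak at the promoter of Mapk3, which encodes the kinase ERK1, had percentile ranks of 74.7 and 76.2 in young EC-K4KO replicates 2 and 3 and 79.7 and 68.4 in the old EC-K4KO libraries. It was absent from young EC-K4KO replicate 1, and a peak of old WT Cre replicate 2 lay 722 bp away. The member at the promoter of Slc4a2, an anion exchanger, had ranks of 67.8, 70.2, 60.7 and 51.7 in the same 4 libraries, with a WT Cre peak 931 bp away. At N4bp1 (chr8:86885073-86885442, over the TSS) all 5 libraries had a peak, with ranks of 49.6, 66.9 and 51.0 in young and 75.2 and 66.4 in old EC-K4KO. Tmcc2 ranked 57.3, 50.9, 70.2 and 58.2, again without young EC-K4KO replicate 1. The rest of the 8 strongest promoter members were those of Impdh1, an enzyme of guanine nucleotide synthesis, E2f3, a cell cycle factor, Jade1, a subunit of a histone acetyltransferase complex, and Unkl, which the authors' table lists under BC003965. Their mean ranks were 57.0, 56.2, 53.9 and 50.6, with WT Cre peaks 1115 to 3341 bp away, and members outside promoters lay among them, such as that of Slc6a6 at 58.5.

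Of the 18 members held by all 5 EC-K4KO libraries, 8 were intronic, 6 intergenic and 2 at promoters (11.1%) by the authors' class. Promoters made up 10.1% of all merged regions and 51.6% of the 11701 regions held by all 5 EC-K4KO libraries. The intronic members included those near Rbpms, an RNA-binding protein gene, Adgrf5, an adhesion receptor of vascular cells, and Plcb4, a phospholipase C. The Rbpms member (chr8:33912753-33913293) had ranks of 31.0, 67.3 and 33.2 in young and 46.2 and 53.2 in old EC-K4KO. The Adgrf5 member (chr17:43400516-43400783) ranked 74.6, 66.9 and 54.1 in young and 19.5 and 14.7 in old EC-K4KO, the groups not overlapping. The opposite order was seen near Nov, which encodes the matrix protein CCN3, at 12.6, 8.76 and 22.3 in young and 74.8 and 61.1 in old EC-K4KO. Such pairs were picked from many after their values were seen and carry no test. Plcb4 ranked 33.6, 43.9 and 57.5 in young and 47.9 and 40.2 in old EC-K4KO, which overlapped. The remaining members of the top 12 were near Dda1 (in an exon of Ano8), Cdkn2b, Kif21a (over its TSS), Synm (in an intron of Ttc23), 1700064J06Rik, Leo1 and Isyna1 (in an exon of Ell), with mean ranks of 32.2 to 48.6.

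**Figure D4:**
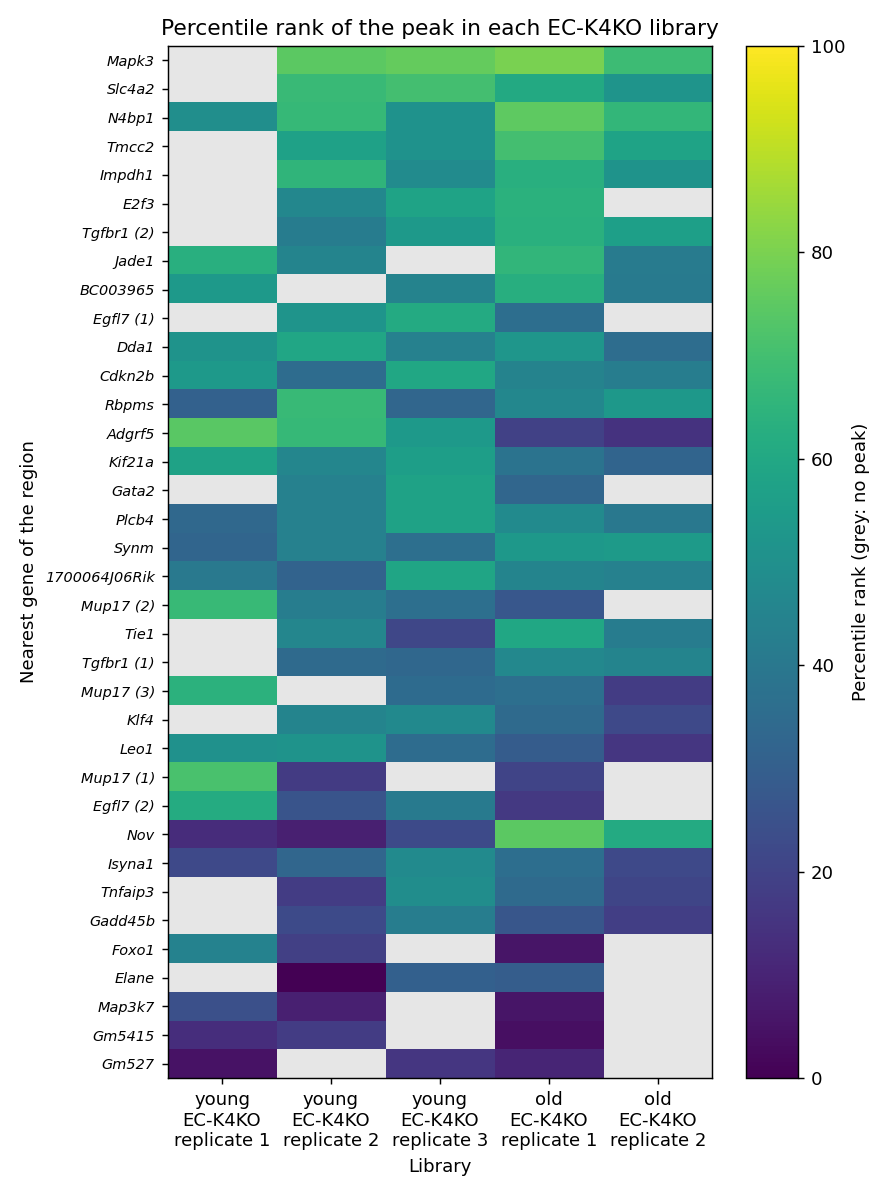
Percentile rank of the peak (colour, 100 for the smallest p) at 36 members chosen by rule, ordered by mean rank, in each EC-K4KO library (x axis), with the nearest gene on the y axis and grey for no peak. Members with the same gene are numbered by position. Mapk3 ranks 68.4 to 79.7 in 4 libraries, and young EC-K4KO replicate 1 is grey in many rows.

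By the authors' annotation, 9 members had a gene of the pathway lists nearest and 3 had a gene of the endothelial marker list nearest. A GENCODE TSS often lay closer than the TSS of that annotation. It was 7212 and 10445 bp away for the 2 Tgfbr1 members, 8095 bp for Tie1 and 5885 bp for Gata2. For Tnfaip3 it was 24895 bp away, and for Cdkn2b 33769 bp. Across the 174 genes of 8 pathway lists, 171 were nearest to at least 1 merged region and 8 (4.68%) to a member, while 222 of 19707 genes over the whole table (1.13%) were. Counted by region, 9 members (3.91%) had a listed gene nearest, against 1.80% of all regions. The share was 2.97% of regions with the same EC-K4KO presence and a WT Cre peak. It was 2.70% of regions held by 3 to 5 libraries including WT Cre. The endothelial marker list had 2 of 14 genes near members, Tie1 and Egfl7. By region these were 3 members (1.3%), against 0.226% of all regions. The share was 0.391% of regions with the same EC-K4KO presence and a WT Cre peak, and 0.461% of regions held by 3 to 5 libraries including WT Cre. The member share rests on 3 regions and was not tested. None of the genes of pericytes, microglia, astrocytes, oligodendrocytes or neurons was nearest to a member, with 8 to 11 genes of each list nearest to some region, and the leukocyte list had 1, Elane.

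Among receptors, a pair of regions lay upstream of Tgfbr1, which encodes the type I receptor of TGF-beta. The first overlaps an exon of Col15a1, a basement membrane collagen, and the second is intergenic by GENCODE, at -39135 bp from the TSS. The first ranked 34.5 and 33.3 in young EC-K4KO replicates 2 and 3 and 46.6 and 45.2 in old EC-K4KO. The second (chr4:47313951-47314383) ranked 42, 54, 63.5 and 56.6 in the same libraries, and the nearest WT Cre peak was 19403 bp away. Both hold the AP-1 pattern, and the second is shown above. Tie1, a receptor tyrosine kinase of ECs, had an intergenic member at -15874 bp (chr4:118505579-118505894) with ranks of 45.9, 21.1, 59.5 and 41.9 and both an AP-1 and an ETS pattern. Young EC-K4KO replicate 1 lacked all 3 of these regions.

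Some members near genes outside these lists were chosen after their values were seen. Cd34, a surface marker of ECs and stem cells, had an intronic member with ranks of 30, 26.6 and 30.1 in young EC-K4KO replicates 2 and 3 and old EC-K4KO replicate 1. Mecom, a transcription factor gene, had an intronic member in all 5 libraries with ranks of 5.03, 35.6 and 24.8 in young and 11.1 and 18.2 in old EC-K4KO. Gucy1a2, a subunit of the nitric oxide receptor guanylate cyclase, had a promoter member with ranks of 37.7, 35.8 and 18.8 in young and 21.9 and 21 in old EC-K4KO. A second Adgrf5 member (chr17:43362541-43363307) ranked 2.94, 12, 47.4 and 21.1 without young EC-K4KO replicate 1.

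Secreted factors and regulators were also among the listed genes. Egfl7, a secreted endothelial protein, had an upstream member at -10506 bp (chr2:26573217-26573511) with ranks of 51.8, 61.3 and 36.2 in young EC-K4KO replicates 2 and 3 and old EC-K4KO replicate 1. A second Egfl7 member in an intron (chr2:26586717-26587136) ranked 61.4, 26.0 and 40.8 in the 3 young libraries and 16.7 in old EC-K4KO replicate 1. A GENCODE TSS lay 288 bp from this second member, whose central 200 bp were 68% GC. Among transcription factors, an intergenic member at -13799 bp from Gata2 ranked 43.8, 57.8 and 32.9, and an intronic member of Foxo1 ranked 44.5, 18.9 and 5.85, each in 3 libraries. An intergenic member at -46937 bp from Tnfaip3, an inhibitor of NF-kB, ranked 17.6, 49.1, 34.5 and 20.8. Members also lay near Gadd45b, a stress-inducible gene (mean rank 27.5), and at -167964 bp from Cdkn2b, a cyclin-dependent kinase inhibitor, with ranks of 53.8, 35.3 and 59.4 in young and 44.8 and 42.3 in old EC-K4KO. No member was nearest to a gene of the lists for blood-brain barrier junctions and transport (25 genes), AP-1 and immediate early genes (16) or the CCM and MEK5-MEF2 pathway (12).

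By list, the counts were 1 of 21 KLF and SP factor genes, 1 of 20 for leukocyte adhesion and NF-kB and 2 of 18 for stress and senescence. They were 2 of 40 for vascular signalling and 2 of 19 for the list of ETS and SOXF endothelial factors. Those last 2 were Foxo1 and Gata2, which belong to neither family. Over all genes nearest to any region the share was 1.13%. Elane, encoding neutrophil elastase, had a member of mean rank 20.

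The single KLF or SP factor was Klf4 itself. Its member (chr4:55541249-55541968) is intergenic, at -9152 bp from the Klf4 TSS, and the only member within 2 Mb of it, among 175 regions there. It ranked 45.3 and 47.6 in young EC-K4KO replicates 2 and 3 and 34.4 and 21.9 in old EC-K4KO replicates 1 and 2, with folds of 4.53, 4.65, 4.27 and 4.03. Young EC-K4KO replicate 1 had no peak, and the nearest WT Cre peak, of old WT Cre replicate 2, was 8138 bp away. The central sequence holds FOX and SOX patterns and no KLF pattern.

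The number of members per 1000 merged regions differed between chromosomes, and this spread was not tested against counting error. Chromosome 8 held 21 and chromosome 4 held 23, or 4.20 and 3.94 per 1000 merged regions, against 2.49 genome-wide and 1.53 on chromosome 18. Within 10 Mb of Klf4 on chromosome 4 there were 9 members among 852 regions (10.6 per 1000), and 2.81 per 1000 on the rest of the chromosome. Of those 9, 5 were nearest to Mup genes, which encode major urinary proteins in a cluster of near-identical copies where reads are hard to place. Leaving out regions nearest to Mup genes, 4 of 751 remained (5.33 per 1000). Mup17 was the gene with most members, 3, with ranks of 64.1 to 71.2 in young EC-K4KO replicate 1, 17.5 to 42.2 in the other young libraries and 17.7 to 36.4 in old EC-K4KO. Of 101 regions nearest to Mup genes, 66 (65.3%) had no WT Cre peak, against 42.6% of all 92495 regions. The Mup genes were singled out after their values were seen.

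**Figure D5:**
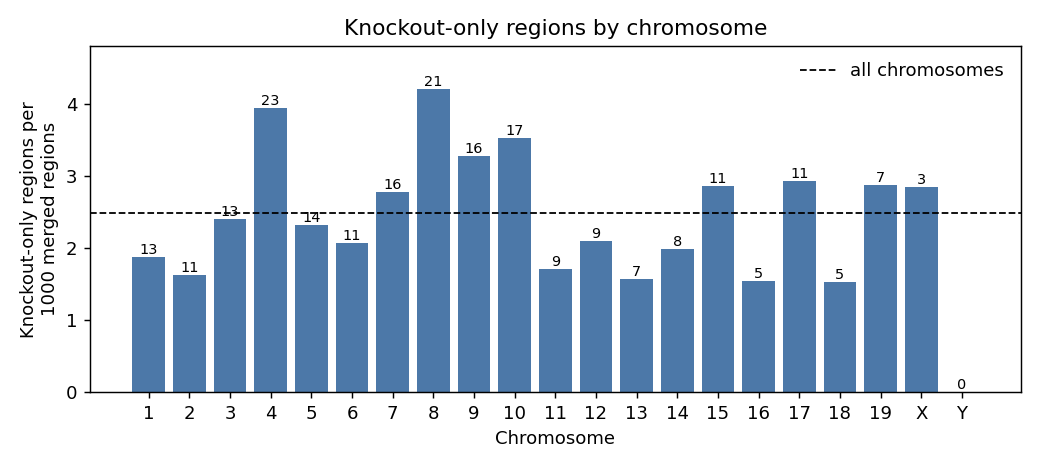
Knockout-only regions per 1000 merged regions (y axis) on each chromosome (x axis), with the number of members above each bar and the genome-wide value of 2.49 as a dashed line. Chromosomes 8 and 4 are highest, at 4.20 and 3.94.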

How the data were processed

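Omni-ATAC-seq libraries of purified brain EC nuclei were analysed from the peak lists of the authors, 9 in all. Per the methods of the study, reads were trimmed with TrimGalore, mapped to mm10 with Bowtie2, stripped of duplicates and poorly mapped reads, and given broad peaks with MACS2 in each library. The deposited lists give a score, a fold enrichment (a ratio to local background), a -log10 p and a -log10 q per peak, and the authors' annotation copies the score and adds a class, a nearest gene and a distance to the TSS. No read counts were analysed here.

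Peaks sharing at least 1 bp were merged. Percentile ranks follow -log10 p within a list, and where a library had several peaks in a region the strongest was used. Patterns were searched on both strands of the central 200 bp of GRCm38.p6 sequence (RefSeq), TSSs came from GENCODE M21 basic, and a nearest gene is that of the region's strongest peak in the authors' table. Comparisons of libraries used two-sided exact permutation tests of group means. The merging and the rule were tested on simulated peak lists. Alternatives were stricter q limits, equal list lengths, 50% coverage of a region, a 500 bp margin, other numbers of libraries, a replicate block and leaving out each library.

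The members, gene lists and patterns were chosen with earlier results of these data known, and the AP-1 pattern was taken up after seeing the shares. Some items are not reported here. Named members were the 12 strongest in all 5 EC-K4KO libraries, the 8 strongest at promoters, those nearest to listed genes, the 3 with the lowest mean -log10 q, those within 2 Mb of Klf4 and those of the gene with most members. Scripts ran in Python 3.11.15 (pandas 2.3.3, numpy 2.4.6, scipy 1.17.1), and matplotlib 3.10.9 drew the plots.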

Additional observations from a re-analysis of the deposited data

How the results depend on the processing

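The number of members moved most with list length and with the libraries in the rule. It was 230, and 129 with q below 0.01, 51 with lists cut to 6157 peaks, 0 with equal list lengths within age, 18 when all 3 young and both old EC-K4KO libraries were required and 1719 when 1 of each sufficed. Leaving out single libraries gave 57 to 549. The mirror count was 39, and 20 with q below 0.05, 0 with q below 0.01, 104 with lists cut to 6157 peaks and 22 with equal lengths within age, with 11 to 50 over left-out libraries. The promoter share of 15.7% became 43.1% with lists cut to 6157 peaks, 29.7% where peaks had to cover 50% of the region and 27.0% by TSS within 1000 bp, and it was 11.7 to 22.8% over left-out libraries. The KLF share of 6.96% became 3.88% with q below 0.01 and 22.6% over whole regions. The AP-1 share of 20.4% became 33.3% with q below 0.01 and 40.4% over whole regions, and it was 12.3 to 27.1% over left-out libraries. No KLF or AP-1 share over all regions was computed in these settings. Members were wider than all regions, with median widths of 548 and 354 bp. The old libraries at regions chosen in young ones differed by 2.84 points with lists cut to 6157 peaks and by 0 with equal lengths within age, where every library was at 100%. The young libraries at regions chosen in old ones differed by 5.61 points in the first setting and -0.0345 in the second, which rests on 0 to 4 regions a library. By age, member peaks differed by 0.459 in fold and 32.2 bp in width, against -4.06 in percentile rank. The cause of these shifts was not tested beyond the settings' own construction.

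With replicates 1 and 2 paired as a replicate block, the 3 comparisons of libraries gave 3.88 points, 2.80 points and -3.15 percentile ranks, each with an exact p of 0.5, the smallest that 2 pairs allow. The labels do not say that a number marks a shared mouse or day. No call changed, since none of these designs could pass 0.05.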
